A study of Mus musculus with 16 samples.

Results

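The genes described here are 32 known transcriptional targets of the tumour suppressor p53, of 27703 gene names on the array, followed in mouse lung after a tobacco carcinogen, a selenium compound or both. They were chosen by name, but with earlier results of these data known, so the counts below are not blind to the data. Non-control probes were named by RefSeq accession, or failing that by symbol or an older synonym. Every probe so named for a member was taken. All 32 were found, on 58 of 41174 probes, and 3 of them stand in the files under older names, namely Zmat3 as Wig1, Aen as Isg20l1 and Psrc1 as 5430413I02Rik. The 16 samples are lung RNA of females of the inbred A/J strain, in which lung tumours arise readily, and the age of the mice is not given. The NNK+SECY group had 1 intraperitoneal injection of NNK (10 uM in 0.2 mL of saline), a nitrosamine of tobacco that alkylates DNA once lung enzymes have activated it, and 3 days later began 10 days of a diet with 15 ppm selenocystine, the selenium-containing form of the amino acid cystine. The SECY group had the selenocystine diet alone for 10 days, the NNK group the injection alone, and the Untreated group neither. All 4 groups ate AIN-76 diet with 0.35 ppm selenium, and lungs were taken 13 days after NNK. Each group holds 4 samples, taken here as 4 mice. Each has 1 array, on which its RNA (Cy5, red) was set against an equal pool of the 4 Untreated RNAs (Cy3, green). Values below are log2(Cy5/Cy3), so that 0 is the level of that pool and higher values mean more RNA than in the pool. The arrays were never dye-swapped.

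The p53 protein is kept scarce by Mdm2, which marks it for destruction. DNA damage frees it, and it then binds paired copies of a short DNA motif near its targets and raises their transcription. Those targets halt the cell cycle, trigger apoptosis, repair DNA, restrain growth signalling and, through Mdm2 itself, switch p53 off again. In lung, NNK is known to cause methyl and pyridyloxobutyl adducts in DNA, the kind of lesion that activates this pathway.

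The motif is printed for the members on which the results turn and for those whose upstream sequence comes nearest to it. The p53 decamer was searched in the RefSeq promoter windows of assembly GRCm38.p6, each with 250 bases before and 50 after a transcription start. It reads the same on both strands. A full site was taken as a pair of decamers in a row, with a gap of 0 or 1 base and the core C and G kept in each. Windows exist in that table for 24 of the 32 members. Zmat3, Pmaip1, Tnfrsf10b, Perp, Trp53inp1, Rrm2b, Ddb2 and Xpc have none. A decamer stood in 12 of 33 member windows, against 8.36% of all 32851 windows. A full site with at most 1 mismatch stood in 2 member windows, against 0.11% of all windows. With at most 3 mismatches it stood in 7 member windows, of 6 genes, against 2.82% of all windows. These are the best sites of those 6 genes, with capitals for bases that fit the consensus and lower case for those that do not or that lie in the gap.
Ccng1: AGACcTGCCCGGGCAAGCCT
Cdkn1a: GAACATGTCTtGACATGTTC
Bax: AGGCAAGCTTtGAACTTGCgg
Aen: GGGCTTGTCCGGGCAAGgag
Bbc3: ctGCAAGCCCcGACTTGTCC
Sesn1: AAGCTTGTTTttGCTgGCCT
They lie at chr11:40755462-40755481, minus strand (Ccng1), chr17:29090928-29090947, plus strand (Cdkn1a), chr7:45467079-45467099, minus strand (Bax), chr7:78895937-78895956, plus strand (Aen), chr7:16309486-16309505, plus strand (Bbc3) and chr10:41887266-41887285, plus strand (Sesn1). Ccng1 and Cdkn1a have 1 mismatch each, Bax has 2, and the others have 3. The Ccng1 site begins 195 bases before the start, the Cdkn1a site 51 bases before the start of its more upstream transcript, and the Bax site 201 bases before.

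The 250 bases before the start are shown for 3 members that passed the test of expression described below, with capitals for the full site of Ccng1 and the decamer of Ddit4l. Psrc1 holds no decamer in either of its windows, and its more upstream window is shown in lower case throughout.
Ccng1: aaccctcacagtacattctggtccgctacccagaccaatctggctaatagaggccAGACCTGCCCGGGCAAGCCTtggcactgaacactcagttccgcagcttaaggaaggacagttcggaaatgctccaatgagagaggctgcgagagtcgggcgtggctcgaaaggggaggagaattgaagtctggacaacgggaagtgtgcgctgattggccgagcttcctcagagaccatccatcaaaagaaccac
Ddit4l: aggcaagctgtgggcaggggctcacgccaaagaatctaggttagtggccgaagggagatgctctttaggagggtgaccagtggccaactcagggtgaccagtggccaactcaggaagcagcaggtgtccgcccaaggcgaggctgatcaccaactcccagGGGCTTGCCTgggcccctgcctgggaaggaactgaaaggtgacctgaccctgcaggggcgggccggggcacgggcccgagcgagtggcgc
Psrc1: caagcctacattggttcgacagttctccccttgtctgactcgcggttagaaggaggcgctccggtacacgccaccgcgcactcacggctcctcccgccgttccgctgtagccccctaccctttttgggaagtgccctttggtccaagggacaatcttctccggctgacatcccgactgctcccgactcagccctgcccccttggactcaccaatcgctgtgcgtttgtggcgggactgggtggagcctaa
These stretches are chr11:40755287-40755536, minus strand, chr3:137623422-137623671, plus strand and chr3:108383554-108383803, plus strand. The Ddit4l decamer begins 90 bases before the start, and the best full site in that window has 4 mismatches. Among the other members that passed, neither window of Gdf15 and no window of Phlda3, Eda2r or Plk3 holds a decamer. A match describes the sequence alone, and p53 binding was not measured.

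Every member was tested: the chosen probe of each, the brightest of its probes, stood clear of background in the Cy5 channel of each of the 16 arrays. Median spot signals differed by group. In Cy5 they were 90.6 to 103 on NNK+SECY, 89.7 to 105 on SECY, 78.6 to 94.2 on NNK and 71.2 to 86.4 on Untreated arrays. In Cy3 they were 85.0 to 93.4, 79.4 to 85.5, 73.0 to 86.0 and 67.5 to 72.9 in the same order. The share of spots above background in Cy5 was 75.7 to 79.3%, 75.0 to 78.5%, 66.3 to 72.6% and 70.4 to 71.3%. The part of this brightness in the results was not tested. The SECY 3 array stands apart, with a mean correlation of 0.0389 with the other arrays of its group, against 0.288 to 0.394 for the other 3. Untreated 1 and Untreated 3 were at 0.125 and 0.180 with their own group, against 0.308 and 0.377 for Untreated 2 and Untreated 4. Slides were told apart by the barcodes in the file headers. By these, slides 1 to 4 each hold an NNK and an Untreated array, and slides 5 to 8 an NNK+SECY and a SECY array. The NNK and NNK+SECY arrays were scanned on 1 day and the SECY and Untreated arrays on another. NNK and scan day therefore cannot be told apart, nor can the diet and the set of slides, and NNK+SECY and Untreated arrays differ in both. Cy3 held the same pool on every array, and its group means lay more than 0.5 apart (log2) in 1 of 32 members, Sesn2, against 7.40% of all genes tested. As whole lung was sampled, a change in the share of a cell type and a change in RNA per cell cannot be told apart.

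After NNK and selenocystine together, 7 of the 32 p53 targets rose over Untreated lungs and 0 fell, where 0.537% of all genes rose and 1.06% fell (limma, Benjamini-Hochberg adjusted p below 0.05 over all genes, as in every count below). They were Psrc1, Ddit4l, Ccng1, Gdf15, Zmat3, Phlda3 and Eda2r, which span feedback, arrest, apoptosis, metabolism and secretion. None of the 5 repair genes passed (limma), and 0 of 5 is near the background. At an unadjusted p below 0.05, 1 of them was higher. Over all 32 members, 16 were higher and 0 lower at an unadjusted p below 0.05, against 4.6% higher and 4.63% lower over all genes. The median log2 difference over the 32 was 0.16, and 28 of them were above 0, against a median of 0.00038 and 50.2% above 0 over all genes. In 14 members every NNK+SECY array lay above every Untreated array, where 3.21% of all genes did so.

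With selenocystine alone, 3 of 32 rose over Untreated lungs and 0 fell, where 0.212% of all genes rose and 0.0659% fell. These were Psrc1, Gdf15 and Ddit4l, and at an unadjusted p below 0.05 10 were higher and 0 lower, against 3.04% higher and 5.07% lower over all genes. The groups did not overlap in 6 members, all with SECY above, against 1.74% of all genes. The median was 0.11, against -0.0034 over all genes, and 25 members were above 0, against 48.1% of all genes. With NNK alone, Psrc1 was the 1 member of 32 that rose and 0 fell, where 0.32% of all genes rose and no gene fell. At an unadjusted p below 0.05, 7 were higher and 0 lower, against 3.38% higher and 1.67% lower over all genes. Here 5 members had every NNK array above every Untreated array, against 2.44% of all genes. The median was 0.062, against 0.0048 over all genes, and 25 members were above 0, against 52.9% of all genes. These 3 comparisons share the Untreated arrays, so they do not bear on each other as separate evidence.

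Adding selenocystine to NNK gave 4 of 32 members higher in NNK+SECY than in NNK lungs and 0 lower, where 0.306% of all genes were higher and 1.44% lower. They were Ddit4l, Psrc1, Gdf15 and Plk3, and 13 were higher and 0 lower at an unadjusted p below 0.05, against 3.66% higher and 6.25% lower over all genes. In 9 members the NNK+SECY arrays lay wholly above the NNK arrays, against 3.3% of all genes. Between NNK+SECY and SECY lungs 0 of 32 members passed limma's threshold, where 0.00942% of all genes were higher. At an unadjusted p below 0.05, 7 members were higher and 0 lower in that comparison, against 3.68% higher and 2.46% lower over all genes. In 0 members did the NNK+SECY arrays lie wholly above the SECY arrays, against 1.46% of all genes, so this is near the background. The interaction, which is the NNK effect with selenocystine minus the NNK effect without it, passed in 0 of 32 members, where it was above 0 and past the threshold in 0.00471% of all genes. At an unadjusted p below 0.05 it was above 0 in 0 members and below 0 in 1, against 1.97% above and 2.64% below over all genes, so 1 of 32 is near the background.

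**Figure D1:**
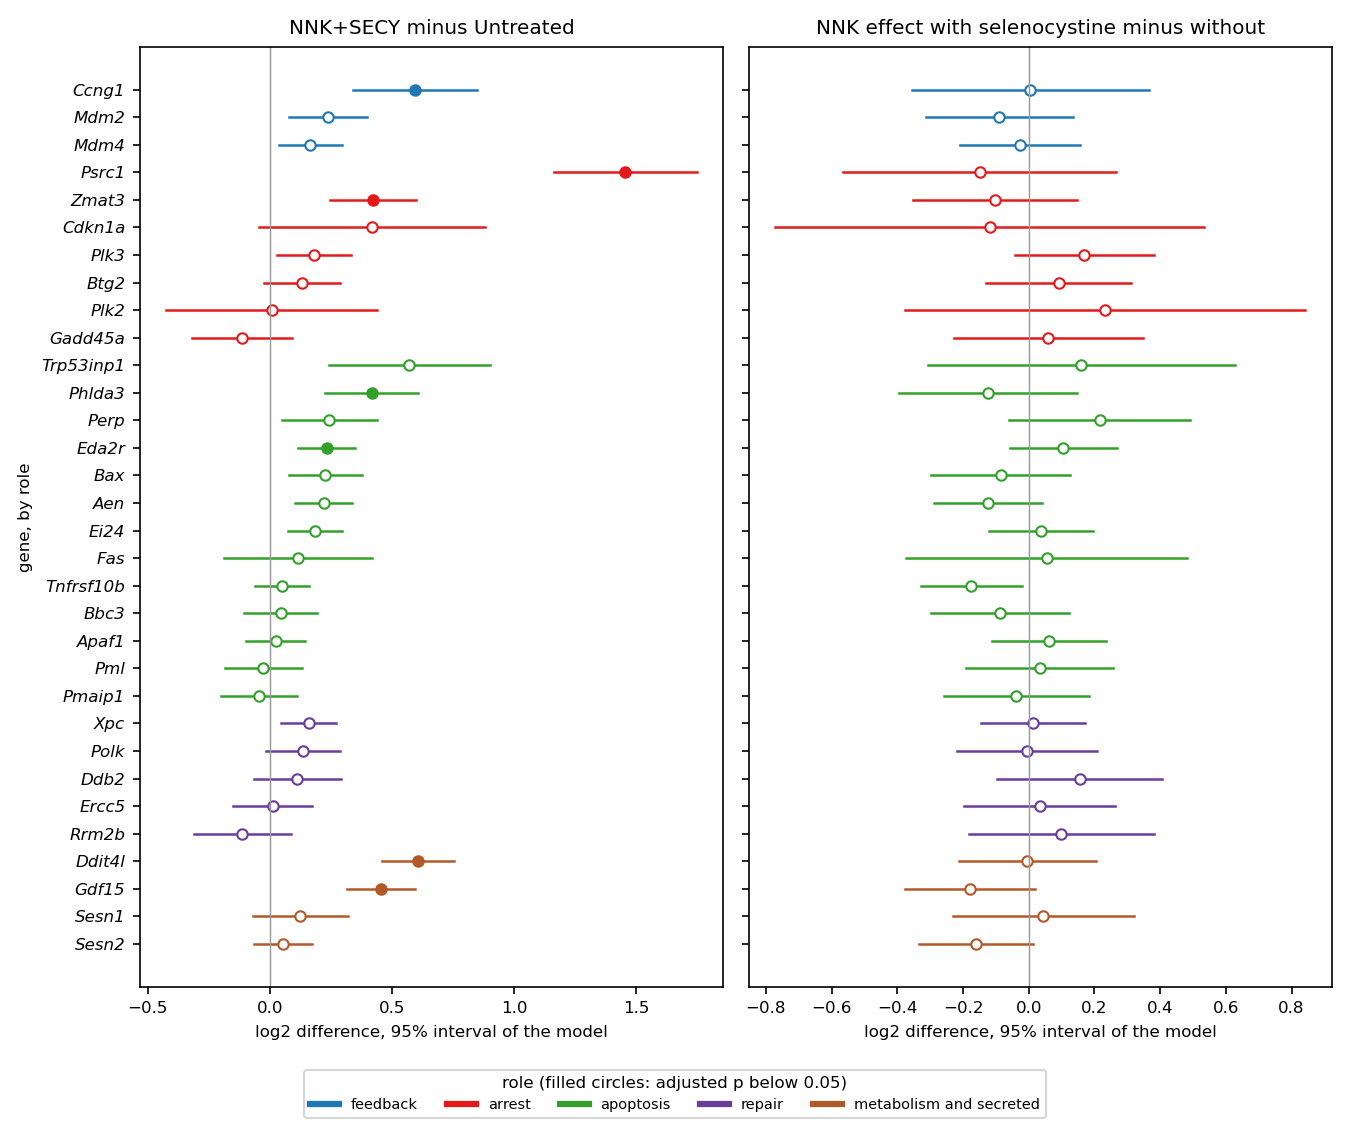
Log2 difference of each of the 32 p53 targets, by role from top to bottom, with its 95% interval from the limma model (4 arrays per group). The left panel gives NNK+SECY minus Untreated, where 7 genes have filled circles (adjusted p below 0.05) and Psrc1 lies farthest right at 1.46. The right panel gives the NNK effect with selenocystine minus that without, on its own scale, where no circle is filled.

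The feedback genes act on p53 itself. Ccng1, cyclin G1, which steers a phosphatase to Mdm2, had log2 ratios of 0.70, 0.70, 0.54 and 0.74 in NNK+SECY lungs, 0.52, 0.64, -0.09 and 0.52 in SECY lungs, 0.25, 0.38, 0.38 and 0.34 in NNK lungs and 0.12, 0.17, -0.15 and 0.16 in Untreated lungs. NNK+SECY arrays lay above all NNK and Untreated arrays, SECY 2 was the 1 SECY array within their range, and SECY 3 was the lone SECY array below 0. Ccng1 rose by 0.59 ± 0.12 (SE, as for every ± here, n = 4 per group) over Untreated (limma, adjusted p = 0.0169). It was at 0.33 ± 0.12 in SECY and 0.26 ± 0.12 in NNK over Untreated, and neither passed. Without SECY 3 the SECY value was 0.49 and passed (adjusted p = 0.00502). The NNK+SECY value lost its call without Untreated 3, NNK+SECY 1 or NNK+SECY 4, at adjusted p from 0.0559 to 0.0684 (limma), and with median centring in place of loess (adjusted p = 0.0586). A second, dimmer Ccng1 probe gave 0.64 ± 0.10 over Untreated (adjusted p = 0.00468, over all probes) and 0.52 ± 0.10 over NNK (adjusted p = 0.0116).

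Mdm2, the ubiquitin ligase that degrades p53, had 0.21, 0.21, 0.23 and 0.14 in NNK+SECY lungs, against -0.15, 0.03, -0.11 and 0.06 in Untreated lungs, groups that did not overlap. Its difference of 0.24 ± 0.07 did not pass over all genes (adjusted p = 0.186, limma), nor did its 0.13 ± 0.07 in SECY or 0.19 ± 0.07 in NNK lungs. Mdm4, which binds p53 and blocks its activity, was at 0.17 ± 0.06, 0.11 ± 0.06 and 0.08 ± 0.06 over Untreated in NNK+SECY, SECY and NNK lungs, and no value passed.

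Of the 7 arrest genes, Psrc1 and Zmat3 rose in NNK+SECY over Untreated lungs, and Plk3 was higher in NNK+SECY than in NNK lungs. Psrc1, a microtubule-binding protein of the mitotic spindle whose gene is a direct p53 target, had log2 ratios of 1.59, 1.37, 1.26 and 1.46 in NNK+SECY lungs, 0.70, 1.29, 0.64 and 0.64 in SECY lungs, 1.06, 0.69, 0.60 and 0.53 in NNK lungs and 0.17, -0.16, -0.08 and -0.07 in Untreated lungs. Every treated array lay above every Untreated array, and SECY 2 stood above the other SECY arrays and within the NNK+SECY range. Psrc1 rose over Untreated by 1.46 ± 0.14 in NNK+SECY, a 2.74-fold difference (limma, adjusted p = 3.34e-05). It rose by 0.85 ± 0.14 in SECY (adjusted p = 0.00855) and by 0.76 ± 0.14 in NNK (adjusted p = 0.0246). Its level in the Cy5 channel was 1.48, 0.77 and 0.85 higher (log2) than in Untreated lungs in the same 3 groups, while Cy3 differed by 0.020, -0.077 and 0.091.

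The Psrc1 values depended on the arrays and signals in several ways. The NNK call was lost without Untreated 2, Untreated 3, Untreated 4, NNK 2, NNK 3 or NNK 4 (values 0.64 to 0.82 over all 8 omissions, adjusted p up to 0.102, limma). From the scanner's processed signals, which carry no added offset, the Psrc1 differences were 2.31 in NNK+SECY, 1.59 in SECY and 1.52 in NNK over Untreated, and all 3 passed. When the SECY and Untreated arrays were fitted alone, the SECY call was lost (adjusted p = 0.104). Psrc1 was 0.70 ± 0.14 higher in NNK+SECY than in NNK lungs (adjusted p = 0.00994), a call that was lost with processed signals, at 0.78 (adjusted p = 0.182). In NNK+SECY over SECY it was at 0.61 ± 0.14 and did not pass (adjusted p = 0.486); without SECY 2 it was at 0.76 and passed (adjusted p = 0.0231). The interaction was -0.15, with a 95% interval of -0.56 to 0.27, which includes 0 and reaches 0.56 below it.

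Zmat3, a zinc finger protein that binds RNA, had 0.45, 0.52, 0.39 and 0.42 in NNK+SECY lungs, 0.07, 0.29, 0.48 and 0.21 in SECY lungs, 0.22, 0.35, 0.45 and 0.21 in NNK lungs and -0.14, -0.04, 0.14 and 0.12 in Untreated lungs. All NNK+SECY and all NNK arrays lay above every Untreated array, while SECY 1 fell among the Untreated ones. The rise of 0.42 ± 0.08 in NNK+SECY passed (limma, adjusted p = 0.0148), and was lost only without Untreated 1 among the 8 omissions (adjusted p = 0.0545). The values of 0.24 ± 0.08 in SECY and 0.28 ± 0.08 in NNK did not pass. Plk3, a polo-like kinase active in stress responses, had 0.08, 0.10, 0.15 and 0.07 in NNK+SECY lungs, 0.20, -0.13, 0.18 and -0.02 in SECY lungs, -0.28, -0.20, -0.16 and -0.19 in NNK lungs and -0.20, -0.06, 0.06 and -0.13 in Untreated lungs. Its NNK arrays lay below every NNK+SECY and SECY array and overlapped the Untreated ones. NNK+SECY lungs exceeded NNK lungs by 0.31 ± 0.07 (adjusted p = 0.0315), but the call was lost on leaving out any 1 of the 8 arrays (adjusted p from 0.0587 to 0.0997). Against Untreated lungs Plk3 was at 0.18 ± 0.07 in NNK+SECY, 0.14 ± 0.07 in SECY and -0.13 ± 0.07 in NNK, none of which passed.

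Cdkn1a, the cyclin-dependent kinase inhibitor p21 and the best known arrest gene of p53, had 0.35, 1.03, -0.08 and 0.63 in NNK+SECY lungs, 0.20, 0.75, 0.72 and 0.38 in SECY lungs, -0.19, 0.38, 0.51 and -0.09 in NNK lungs and -0.20, 0.18, 0.44 and -0.16 in Untreated lungs. The values scattered widely within each group and the groups overlapped. Its differences of 0.42 ± 0.22 in NNK+SECY (95% interval -0.04 to 0.88), 0.45 ± 0.22 in SECY (-0.01 to 0.91) and 0.09 ± 0.22 in NNK (-0.37 to 0.55) did not pass. Plk2, a polo-like kinase of centriole duplication, scattered as much, with 0.57, -0.39, 0.40 and -0.27 in NNK+SECY lungs, 0.12, -0.67, -0.53 and -0.23 in SECY lungs, 0.47, 0.14, 0.04 and 0.31 in NNK lungs and 0.39, -0.08, -0.05 and 0.01 in Untreated lungs. Btg2, an antiproliferative cofactor, and Gadd45a, a growth arrest protein induced by DNA damage, were at 0.13 ± 0.07 and -0.11 ± 0.10 in NNK+SECY over Untreated lungs. The direction of Btg2 turned with the probe: A_52_P35217 and A_52_P925197, both above background on all 16 arrays, gave -0.15 ± 0.06 and -0.05 ± 0.05 in NNK+SECY, and -0.21 ± 0.06 and -0.17 ± 0.05 in NNK over Untreated lungs. Plk2, Btg2 and Gadd45a did not pass in any comparison.

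**Figure D2:**
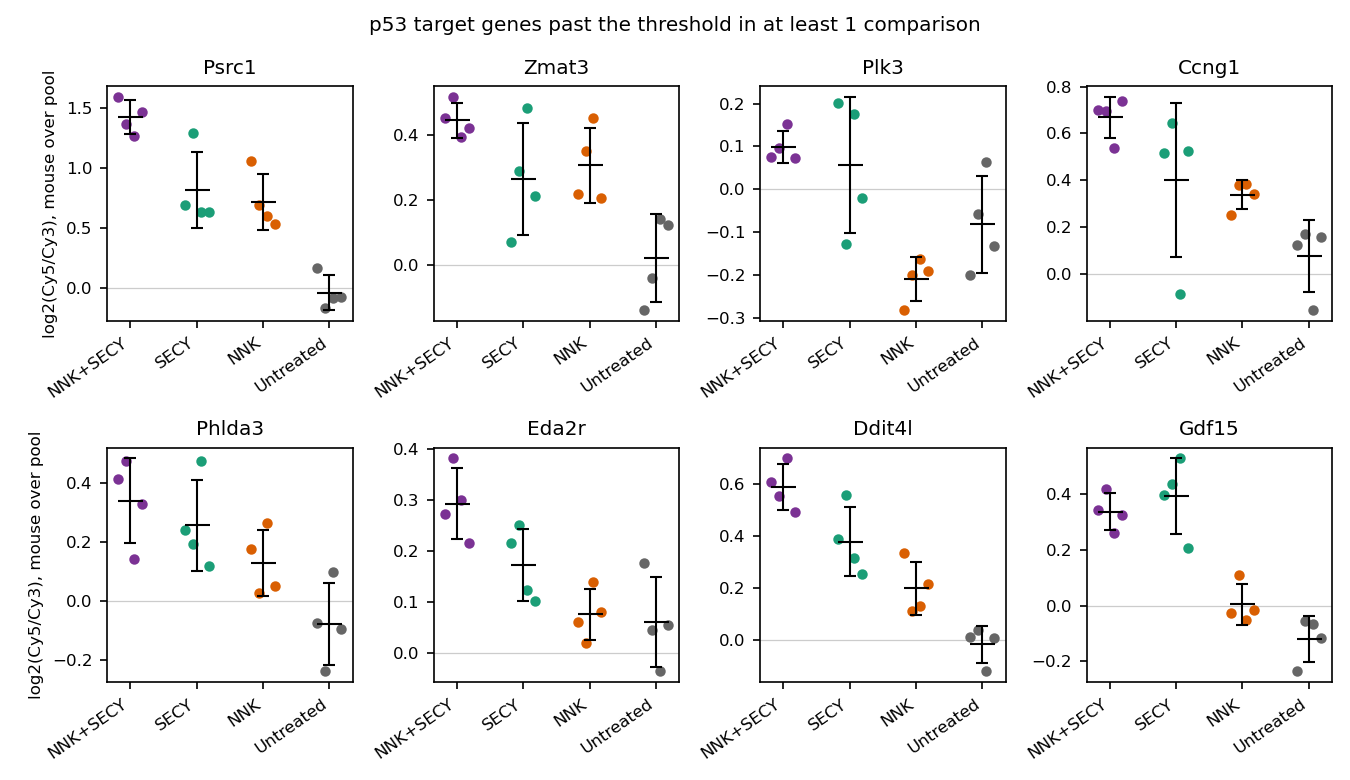
Log2(Cy5/Cy3) on each of the 16 arrays for the 8 genes that passed in at least 1 comparison. Points are mice and black bars are the mean and SD of 4, with groups from left to right NNK+SECY, SECY, NNK and Untreated, and each panel has its own vertical scale. Psrc1, Ddit4l and Gdf15 show all NNK+SECY points above all NNK and all Untreated points, as do Ccng1, Plk3 and Eda2r.

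The 13 apoptosis genes include 2 that rose, both in NNK+SECY over Untreated lungs. Phlda3, which keeps the kinase AKT from the membrane, had 0.41, 0.47, 0.14 and 0.33 in NNK+SECY lungs, 0.24, 0.19, 0.47 and 0.12 in SECY lungs, 0.18, 0.02, 0.26 and 0.05 in NNK lungs and -0.08, -0.24, 0.10 and -0.10 in Untreated lungs. Every NNK+SECY and SECY array lay above every Untreated array, and the NNK arrays overlapped all other groups. The rise was 0.42 ± 0.09 (limma, adjusted p = 0.0265), and it was lost without Untreated 1, 2 or 4 or NNK+SECY 1, 2 or 4 (adjusted p up to 0.0948), with processed signals (adjusted p = 0.0633) and with median centring (adjusted p = 0.153). In SECY and NNK lungs Phlda3 was at 0.33 ± 0.09 and 0.21 ± 0.09, which did not pass.

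Eda2r, a receptor for the ligand ectodysplasin A2, had 0.27, 0.38, 0.30 and 0.21 in NNK+SECY lungs, 0.22, 0.25, 0.12 and 0.10 in SECY lungs, 0.06, 0.02, 0.14 and 0.08 in NNK lungs and 0.18, 0.04, -0.04 and 0.06 in Untreated lungs. NNK+SECY arrays lay above all NNK and Untreated arrays and overlapped the SECY ones. Its rise of 0.23 ± 0.05 passed (limma, adjusted p = 0.0419) but was lost without any 1 of 7 of the 8 arrays, all but Untreated 1, at adjusted p up to 0.154. Processed signals gave 0.63 with adjusted p = 0.145. The mean of its tested probes was at 0.092 and did not pass. A dimmer Eda2r probe, well above background on 4 NNK+SECY, 3 SECY, 0 NNK and 0 Untreated arrays, gave -0.05 ± 0.05, the opposite sign, and the third was not tested. Over NNK lungs Eda2r was at 0.22 ± 0.05 (adjusted p = 0.0567).

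Several other apoptosis genes leaned the same way without passing. Aen, a nuclease that digests DNA in dying cells, had 0.27, 0.34, 0.31 and 0.32 in NNK+SECY lungs, 0.35, 0.25, 0.49 and 0.32 in SECY lungs, 0.18, 0.27, 0.14 and 0.10 in NNK lungs and 0.01, 0.06, 0.17 and 0.11 in Untreated lungs. All NNK+SECY and SECY arrays lay above every Untreated array, yet 0.22 ± 0.05 and 0.26 ± 0.05 fell short (limma, adjusted p = 0.057 and 0.0565). A dimmer Aen probe gave 0.02 ± 0.05 in NNK+SECY over Untreated lungs. That probe was well above background on 4 NNK+SECY, 4 SECY, 1 NNK and 1 Untreated array. Trp53inp1, a nuclear partner that promotes p53 activity, had 0.41, 0.92, 0.38 and 0.74 in NNK+SECY lungs, against 0.15, 0.15, 0.00 and -0.14 in Untreated lungs. Its groups did not overlap, and its difference of 0.57 ± 0.16 was the fourth largest of the 32, but the spread among mice was wide and it did not pass (adjusted p = 0.0978).

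Bax, which opens the outer mitochondrial membrane, was at 0.23 ± 0.07 in NNK+SECY and 0.27 ± 0.07 in SECY over Untreated lungs, and at 0.05 ± 0.07 in NNK. Ei24, a membrane protein of the endoplasmic reticulum, was at 0.18 ± 0.05, 0.12 ± 0.05 and 0.03 ± 0.05 in the same order. Perp, a membrane protein of desmosomes, was at 0.24 ± 0.09, 0.02 ± 0.09 and 0.01 ± 0.09. None of these values passed. The BH3-only killers Bbc3 (Puma) and Pmaip1 (Noxa), the death receptors Fas and Tnfrsf10b, the apoptosome core Apaf1 and the nuclear body scaffold Pml lay between -0.04 and 0.12 in NNK+SECY over Untreated lungs, and none of them passed in any comparison. Tnfrsf10b was the 1 member with an interaction at an unadjusted p below 0.05, at -0.18 ± 0.07, and did not pass over all genes (limma).

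None of the 5 repair genes passed in any comparison. At most 0.537% of all genes were higher and at most 1.44% lower in a comparison, so 0 of 5 is near the background. Xpc, which with Ddb2 finds damaged bases for nucleotide excision repair, had 0.13, 0.01, -0.05 and 0.03 in NNK+SECY lungs, against -0.12, -0.12, -0.09 and -0.19 in Untreated lungs. The groups did not overlap, and the difference of 0.16 ± 0.05 did not pass (limma, adjusted p = 0.233). Ddb2, the endonuclease gene Ercc5, the lesion-bypass polymerase gene Polk and Rrm2b, a subunit of ribonucleotide reductase, lay between -0.11 and 0.14 in NNK+SECY over Untreated lungs. The range over the 5 repair genes was -0.11 to 0.11 in SECY and -0.10 to 0.06 in NNK over Untreated. Rrm2b was at -0.11 ± 0.09, -0.11 ± 0.09 and -0.10 ± 0.09 in the 3 groups.

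Of the 4 metabolic and secreted targets, Ddit4l and Gdf15 rose in both groups fed selenocystine. Ddit4l, which restrains the growth kinase mTOR, had 0.61, 0.56, 0.70 and 0.49 in NNK+SECY lungs, 0.39, 0.56, 0.32 and 0.25 in SECY lungs, 0.34, 0.11, 0.13 and 0.22 in NNK lungs and 0.01, 0.04, -0.12 and 0.01 in Untreated lungs. All arrays of the 3 treated groups were above every Untreated array, and NNK+SECY arrays were above every NNK array. It rose over Untreated by 0.61 ± 0.07 in NNK+SECY (limma, adjusted p = 0.000207) and by 0.40 ± 0.07 in SECY (adjusted p = 0.0153), and was at 0.22 ± 0.07 in NNK, which did not pass. The SECY call was lost without Untreated 3, Untreated 4 or SECY 2 (adjusted p up to 0.0691), and with the SECY and Untreated arrays fitted alone (adjusted p = 0.15). NNK+SECY lungs exceeded NNK lungs by 0.39 ± 0.07 (adjusted p = 0.00439). From processed signals the differences were 1.15 and 0.87 in NNK+SECY and SECY over Untreated and 0.67 in NNK+SECY over NNK, and all 3 passed.

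Gdf15, a secreted stress cytokine of the TGF-beta family, had 0.34, 0.42, 0.26 and 0.32 in NNK+SECY lungs, 0.40, 0.44, 0.53 and 0.20 in SECY lungs, -0.03, 0.11, -0.05 and -0.02 in NNK lungs and -0.24, -0.05, -0.07 and -0.12 in Untreated lungs. All 8 arrays of mice fed selenocystine lay above all 8 arrays of mice that were not. Gdf15 rose over Untreated by 0.46 ± 0.07 in NNK+SECY (limma, adjusted p = 0.00187) and by 0.51 ± 0.07 in SECY (adjusted p = 0.000902), and NNK+SECY lungs exceeded NNK lungs by 0.33 ± 0.07 (adjusted p = 0.0103). These 3 calls held on leaving out each array in turn. In NNK over Untreated lungs Gdf15 was at 0.12 ± 0.07 and in NNK+SECY over SECY at -0.06 ± 0.07, and neither passed. Processed signals gave 0.77 and 0.93 in NNK+SECY and SECY over Untreated, both past the threshold.

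The sestrins, which inhibit the growth complex mTORC1, did not pass in any comparison. Sesn1 was at 0.12 ± 0.09, 0.02 ± 0.09 and 0.06 ± 0.09 in NNK+SECY, SECY and NNK over Untreated lungs. Sesn2 was at 0.05 ± 0.06, 0.13 ± 0.06 and 0.08 ± 0.06, the last from 3 NNK arrays, since a flagged spot left NNK 4 without a value. The Sesn2 ratios cover a shift in both colours: from Untreated, Cy5 was 1.08 and Cy3 1.03 higher (log2) on the NNK+SECY arrays, although Cy3 held the same pool throughout. What moved both colours was not tested.

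Psrc1 and Ddit4l each have 3 probes, and these did not respond alike. Fitted as rows of their own over 30749 probes, the counts of higher probes were 0.475% of all probes in NNK+SECY over Untreated, 0.195% in SECY over Untreated, 0.211% in NNK over Untreated and 0.289% in NNK+SECY over NNK. The Psrc1 values given above are those of its brightest probe, A_51_P409694, which starts 1352 bases beyond the first Psrc1 probe in the coordinates of the array's annotation, which name no genome build. The probe A_52_P271528, 936 bases beyond the first, had 0.51, 0.46, 0.46 and 0.44 in NNK+SECY lungs, 0.10, 0.43, 0.25 and 0.15 in SECY lungs, 0.36, 0.24, 0.30 and 0.17 in NNK lungs and 0.04, -0.08, -0.13 and -0.13 in Untreated lungs. It rose by 0.55 ± 0.07 in NNK+SECY (limma, adjusted p = 0.000307) and 0.34 ± 0.07 in NNK (adjusted p = 0.0388), and was at 0.31 ± 0.07 in SECY over Untreated (adjusted p = 0.0571). In NNK+SECY over NNK it was at 0.20 ± 0.07 and did not pass (adjusted p = 0.219).

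The first Psrc1 probe, A_52_P493112, had 0.29, 0.26, 0.24 and 0.22 in NNK+SECY lungs, 0.12, 0.19, 0.20 and 0.04 in SECY lungs, 0.18, 0.25, 0.23 and 0.16 in NNK lungs and 0.00, 0.19, 0.18 and 0.02 in Untreated lungs. All its NNK+SECY values exceeded the Untreated ones, but by little. It was at 0.15 ± 0.05 in NNK+SECY, 0.04 ± 0.05 in SECY and 0.11 ± 0.05 in NNK over Untreated lungs, and none passed. In NNK+SECY over NNK it was at 0.05 ± 0.05 (limma, adjusted p = 0.851), so the brightest Psrc1 probe alone passed there. All 3 Psrc1 probes stood above background on every array. The first probe shifted in both colours. Its Cy5 level (log2) was 6.82 in NNK+SECY, 6.50 in SECY, 6.86 in NNK and 6.31 in Untreated lungs. Its Cy3 level was 6.57, 6.36, 6.66 and 6.21 in the same order, although Cy3 held the same pool throughout. What moved both colours was not tested. The difference in response between probes was not tested.

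In Ddit4l the brightest probe A_52_P541752 and A_51_P126702 overlap by 20 bases, so they share part of their target. The second had 0.79, 0.57, 0.71 and 0.48 in NNK+SECY lungs, 0.50, 0.55, 0.30 and 0.31 in SECY lungs, 0.31, 0.24, 0.31 and 0.18 in NNK lungs and -0.06, 0.11, -0.01 and 0.01 in Untreated lungs, close to the values of the first. It rose by 0.62 ± 0.07 in NNK+SECY (limma, adjusted p = 0.00022) and 0.40 ± 0.07 in SECY over Untreated (adjusted p = 0.0195), and by 0.38 ± 0.07 in NNK+SECY over NNK (adjusted p = 0.0078). The third, A_52_P311853, starts 1591 bases beyond the first and had 0.39, 0.44, 0.44 and 0.36 in NNK+SECY lungs, 0.26, 0.29, 0.20 and 0.20 in SECY lungs, 0.22, 0.09, 0.04 and 0.06 in NNK lungs and 0.09, 0.11, 0.06 and 0.07 in Untreated lungs. Its NNK+SECY arrays lay above all others. It rose by 0.33 ± 0.05 over Untreated (adjusted p = 0.0015) and 0.31 ± 0.05 over NNK (adjusted p = 0.00133), and was at 0.16 ± 0.05 in SECY and 0.02 ± 0.05 in NNK over Untreated, which did not pass.

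**Figure D3:**
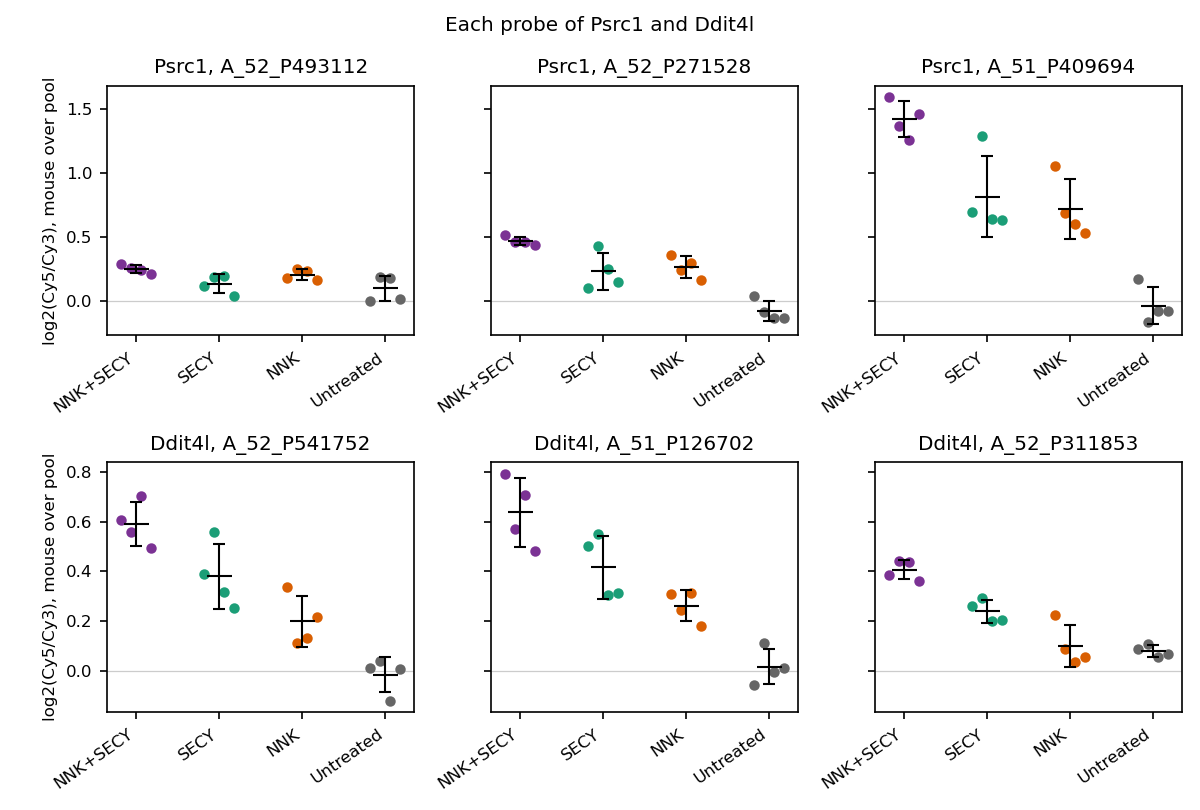
Log2(Cy5/Cy3) on each array for the 3 probes of Psrc1 (top row) and of Ddit4l (bottom row), in order of position within each gene, with the mean and SD of 4 mice per group and groups from left to right NNK+SECY, SECY, NNK and Untreated. The span between NNK+SECY and Untreated is 1.46 for the rightmost Psrc1 probe and 0.15 for the leftmost.

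Among all members, 21 further probes were tested and 5 were not above background in any full group. In NNK+SECY over Untreated lungs, 7 of the 21 had the opposite sign to the chosen probe, and in SECY over Untreated lungs 9 of 21 did. Besides the Eda2r probe and the 2 of Btg2, the 7 were a pair of Mdm4 probes at -0.01 ± 0.05 and -0.05 ± 0.05, 1 of Apaf1 at -0.02 ± 0.06 and 1 of Tnfrsf10b at -0.09 ± 0.06. These Mdm4, Apaf1 and Tnfrsf10b probes were above background on all 4 arrays of the other groups, but on 2, 3, 3 and 2 NNK arrays in that order. Besides those of Psrc1, Ddit4l and Ccng1, none of the further probes passed in any comparison.

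Each slide barcode is shared by an array with NNK and an array without it. The NNK effect can therefore be read slide by slide, in pairs that still differ in scan day. Psrc1 was higher on all 4 slides both ways, by 0.90, 0.08, 0.62 and 0.83 for NNK+SECY minus SECY on slides 5 to 8 and by 0.89, 0.85, 0.68 and 0.61 for NNK minus Untreated on slides 1 to 4. Ccng1 was too, by 0.18, 0.05, 0.63 and 0.21 and by 0.13, 0.21, 0.54 and 0.19 in the same order. No array belongs to both sets. Of 31 members with full data, these 2 were the ones above 0 on all 8 slides, against 1.15% of all genes. For NNK+SECY minus SECY, 4 of 32 members were above 0 on all 4 slides, against 8% of all genes, so this count is near the background. Trp53inp1 and Eda2r were the members besides Psrc1 and Ccng1. For NNK minus Untreated, 11 of 31 members with full data were above 0 on all 4 slides, against 8.78% of all genes.

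Gdf15 was above 0 on all slides in 1 of the sets, with -0.05, -0.02, -0.27 and 0.12 for NNK+SECY minus SECY and 0.21, 0.17, 0.02 and 0.10 for NNK minus Untreated. On slide 7, which holds SECY 3, Ccng1 gave its largest pair difference of slides 5 to 8 and Phlda3 its lowest, -0.33. With the slide as a block, Psrc1 kept its NNK call (limma, adjusted p = 0.0413).

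**Figure D4:**
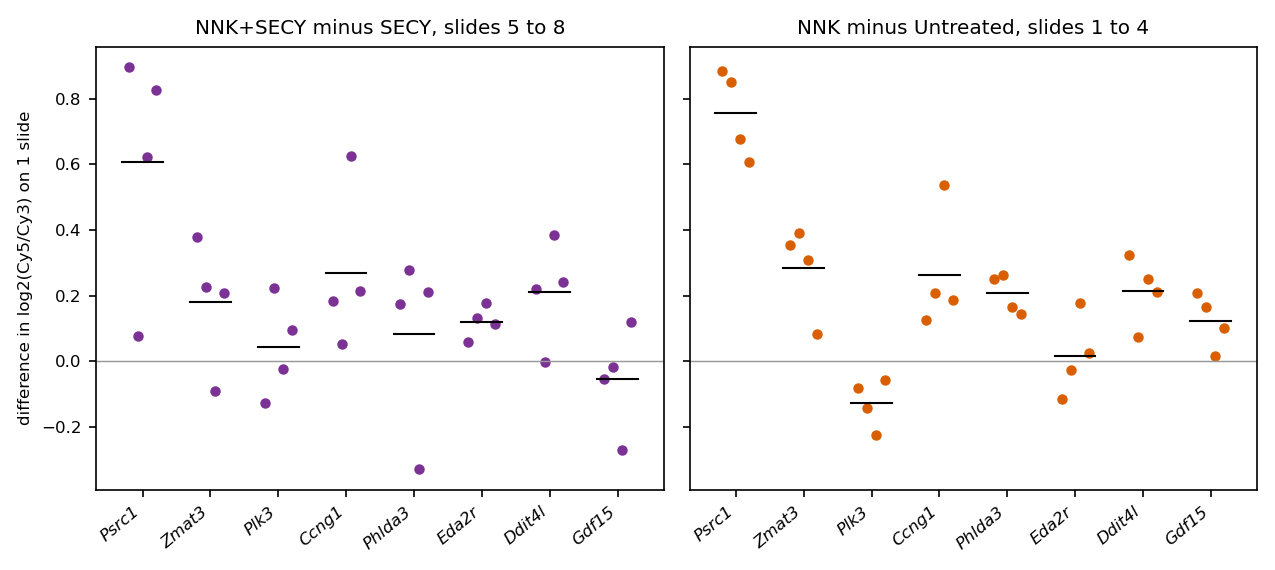
Differences in log2(Cy5/Cy3) between the 2 arrays of 1 slide for the 8 genes that passed in at least 1 comparison, with 4 slides per panel as points and their mean as a line. The left panel gives NNK+SECY minus SECY and the right panel NNK minus Untreated. All 8 points of Psrc1 and all 8 of Ccng1 lie above 0.

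Few other genes of the pathway passed. Of 17 tested regulators of p53, Trp53 itself rose by 0.31 ± 0.06 in NNK over Untreated lungs (limma, adjusted p = 0.0454), and no other passed in any comparison. Beside that value, Cy5 was 0.99 and Cy3 0.68 higher (log2) on the NNK arrays, and the part of this shift in the result was not tested. Of 19 tested further p53 targets none rose. In NNK+SECY over Untreated lungs 11 of these 19 were above 0, with a median of 0.022. Igfbp3, whose product binds IGF in the circulation, fell by 0.70 ± 0.08 in NNK+SECY (limma, adjusted p = 0.000162) and by 0.57 ± 0.08 in SECY (adjusted p = 0.00203) over Untreated. It also fell by 0.63 ± 0.08 in NNK+SECY relative to NNK lungs (adjusted p = 0.000543). None of 10 genes of the integrated stress response, a route by which Gdf15 and Sesn2 can also be induced, passed in any comparison. The part of that route in the Gdf15 result was not tested.

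Of 22 proliferation genes, which mark dividing cells, 21 did not pass in any comparison. Birc5, the survivin gene, rose by 0.97 ± 0.13 in NNK over Untreated lungs (limma, adjusted p = 0.00396) and was -0.62 ± 0.13 in NNK+SECY relative to NNK lungs (adjusted p = 0.0189). Its Cy3 value was 1.31 higher (log2) on the NNK arrays, and the part of this shift was not tested. As markers of the labelled tissue, all 5 of alveolar type 2, all 4 of alveolar type 1 and all 3 of club cells were bright enough to be tested. Of the tested markers of 11 cell types, Cd3e of T cells was the 1 that passed, at 0.44 ± 0.08 in NNK over Untreated lungs (adjusted p = 0.0195), where Psrc1 also rose, and at -0.36 ± 0.08 in NNK+SECY over NNK lungs (adjusted p = 0.0203). Its Cy3 value was 0.66 higher (log2) on the NNK than on the Untreated arrays. The summed level of the 7 T and NK cell markers was 1098 to 1323 on NNK and 853 to 1085 on Untreated arrays, and its part in the Psrc1 result was not tested. In NNK+SECY lungs, where 7 members rose, the summed club cell level was 142920 to 149709, against 149716 to 165989 in Untreated lungs, and that of 3 mesothelial markers was 1508 to 1733, against 1803 to 2144. All 4 ciliated cell markers were above 0 in NNK+SECY over Untreated lungs, from 0.16 to 0.42 with a median of 0.21, and so were all 4 skeletal muscle markers, with a median of 0.26. The summed macrophage level was 7003 to 7555 in NNK lungs, where Psrc1 rose, against 7760 to 8912 in Untreated lungs. Such sums weigh the brightest markers most. By log2 difference, 2 of 4 macrophage markers were above 0 in NNK over Untreated lungs, from -0.27 to 0.063. In NNK+SECY over Untreated lungs 1 of 3 club cell markers was above 0. There the summed levels overlapped for skeletal muscle, at 550 to 1459 against 693 to 1158, and for ciliated cells, at 2644 to 3557 against 2213 to 2949. No single marker of these 5 types passed, and the part of these shifts in the results was not tested.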

How the data were processed

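Lung RNA of 16 mice was measured on 16 two-colour Agilent arrays, 1 per mouse, with Cy5 for the mouse and Cy3 for the Untreated pool. Per the file headers, Feature Extraction (version 8.1.1.1) read each scan into a spot intensity and a local background intensity for either dye. The deposited log10 ratio of Cy5 over Cy3 is its own, after spatial detrending and dye normalization. The authors' deposited value table matched that ratio on the log2 scale within 0.005 and is not centred further. From the intensities, normexp background correction (offset 50) and loess within each array were applied with limma 3.58.1 in R 4.3.3. Control and flagged spots had weight 0, and flagged values were dropped. Replicate spots were averaged, and a gene was read from its probe of highest mean intensity, which affects genes whose probes disagree. A probe was kept where 1 or more groups had it well above background in all 4 of their Cy5 channels, which left 21247 genes and 30749 probes. Levels per channel are means of log2 intensities after Aquantile normalization.

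limma's lmFit and eBayes were fitted to all 16 arrays with 1 mean per group and 12 residual degrees of freedom. P-values were adjusted over all genes by Benjamini-Hochberg, with a threshold of 0.05. The fit was tested on simulated data. The labels number 4 samples per group, taken here as 4 mice; p-values measure the spread between these samples, and 4 arrays per group limit the precision. The offset pulls the ratios of dim probes towards 0. The rule for names took all 32 members, every probe of Psrc1 and Ddit4l and the genes of other lists that passed, and allowed other probes only as a range or where they passed or differed in sign. The members and lists were chosen with earlier results of these data known. Alternatives covered the background correction, signal, normalization, filter, probe rule, array weights, arrays fitted, replicate and slide blocks and each array left out. Promoter windows came from RefSeq (GRCm38.p6).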

Additional observations from a re-analysis of the deposited data

Results flagged for a closer look

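Of 127 groups of 4 arrays, 9 held an array far from the other 3, where chance flags about 1 in 20 groups. Psrc1 was at 1.29 on SECY 2, against 0.64 to 0.70 on the other SECY arrays. Ccng1 was at -0.15 on Untreated 3, against 0.12 to 0.17 on the others. The SECY 3 array was low for Ddb2, at -0.35 against -0.025 to -0.017, and for Apaf1, at -0.099 against 0.070 to 0.10. Ddb2 was also high on NNK 1, at 0.11 against -0.13 to -0.095. Sesn1 was at 0.28 on NNK+SECY 2, against -0.060 to -0.013 on the others. Polk was at 0.30 on NNK+SECY 4, against 0.16 to 0.17. Mdm4 was at 0.0087 on Untreated 2, against -0.15 to -0.13. Xpc was at 0.056 on SECY 1, against -0.060 to -0.041. All values are log2(Cy5/Cy3).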

How the results depend on the processing

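The counts of members higher in NNK+SECY than in Untreated lungs, 7 at first, were 5 with the scanner's processed signals, with the authors' value table and with median centring, and 10 with array weights. Leaving out 1 array gave 4 to 6. For SECY against Untreated, 3 at first, the count was 5 with array weights, which added Aen and Ccng1, and 1 (Gdf15) when the 8 arrays of both groups were fitted alone, and leaving out 1 array gave 2 to 4. NNK against Untreated gave 0 to 1 on leaving out 1 array. NNK+SECY against NNK, 4 at first, gave 2 (Ddit4l and Gdf15) with processed signals and 2 with the authors' value table, and 3 on leaving out any 1 array. NNK+SECY against SECY gave 0 to 1, and the interaction gave 0 under every alternative run. The cause of these shifts was not tested. An offset of 16, chosen after the data were seen, gave 6 in NNK+SECY against Untreated. Same-numbered arrays correlated from -0.12 to 0.50 in their deviations, and in no pair of groups were all 4 above 0.1. Those numbered 1 correlated at 0.21 to 0.50 in every pair of groups. Arrays of unlike number were not compared, so these values cannot tell whether the numbers pair the mice. With the replicate block the counts were 6 in NNK+SECY, 3 in SECY and 1 in NNK against Untreated, 4 in NNK+SECY against NNK, and 0 in NNK+SECY against SECY and for the interaction. No member's called difference changed sign. The size of differences changed with the signal: that of Psrc1 in NNK+SECY over Untreated was 1.46 at first and 2.31 with processed signals. The cause was not tested.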
